A study of Mus musculus with 6 samples.

Results

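Aminoacyl-tRNA synthetases are the enzymes that join each amino acid to its transfer RNA (tRNA). Their mRNAs were followed in 6 libraries of polyA RNA from the mouse mammary carcinoma line 4T1-LM3. In 3 libraries the cells had received control conditioned medium (CM), and in 3 they had received CM from matrix fibroblasts (MFs) described as Tdo2high. Tdo2 encodes tryptophan 2,3-dioxygenase, the enzyme that opens the route from tryptophan to kynurenine. The labels do not give the cell source of the control CM, the time of exposure or separate cultures behind the replicates. P-values thus measure only the spread between these libraries, which may be technical. No group with CM from fibroblasts low in Tdo2 was analysed here, so Tdo2 cannot be told apart from other differences between the media. The members were chosen by gene symbol: every synthetase of the table, the subunits Farsa and Farsb, the bifunctional Eprs, the threonyl-type Tarsl2, the scaffold proteins Aimp1, Aimp2 and Eef1e1, and the tRNA exporter Xpot. This gave 42 of the 16426 genes in the table. A total of 41 reached 1 FPKM (the fragments of a gene, corrected for its length and for the size of the library) in at least 3 libraries and were tested among 10804 genes. The member left out, Mars2, mitochondrial methionyl-tRNA synthetase, lay between 0.7 and 1.12 FPKM and reached 1 FPKM in 2 libraries. The weakest member kept was Aars2, at 2.11 to 2.62 FPKM.

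Mammalian cells keep separate sets of synthetases for the cytosol and for mitochondria, nearly all encoded by different nuclear genes. Kars and Gars, the lysyl and glycyl enzymes, serve both places. Several cytosolic synthetases are held with Aimp1, Aimp2 and Eef1e1 in the multisynthetase complex, and the others work outside it. When amino acids run short or the endoplasmic reticulum is stressed, the transcription factor ATF4 raises many cytosolic synthetase genes together with amino acid transporters and biosynthetic enzymes. The C/EBP-ATF response element is the DNA element through which ATF4 and its partners act.

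FPKM summed to between 438603 and 447415 per library. Pearson's r of log2(FPKM + 1) over the 10804 tested genes was 0.997 to 0.998 within a group and 0.996 between groups. Krt8, Krt18 and Vim, taken as markers of the carcinoma line, were high in all libraries. Their summed level was 1828 to 1956 FPKM with control CM and 1832 to 1911 with Tdo2high MFs CM. Vim alone had 1212 to 1306 FPKM with control CM and 1195 to 1252 with Tdo2high MFs CM, and it is not particular to carcinoma cells. The 6 fibroblast markers in the table summed to 80.5 to 82.3 FPKM with control CM and 80.7 to 82.7 with Tdo2high MFs CM. Among them the collagen genes Col1a1 and Col1a2 did not exceed 0.12 and 0.01 FPKM, Pdgfra rose (log2 fold change 0.17) and Dcn fell (-0.48); their part in the changes of the synthetases was not tested. Myeloid markers summed to at most 2.18 FPKM, endothelial markers to at most 0.12 and lymphocyte markers to at most 0.15. By limma at an adjusted p under 0.05, 801 of the tested genes (7.41%) passed, 439 lower (4.06%) and 362 higher (3.35%). Scaling by the median of ratios turned this split to 367 lower and 455 higher, and leaving out a single library left 395 to 559 genes in all.

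With Tdo2high MFs CM, 9 of the 41 tested members fell and none rose by limma, where 4.06% of all tested genes fell. Those that fell were 7 cytosolic synthetases (Aars, Cars, Yars, Wars, Mars, Iars and Eprs), the exporter Xpot and the mitochondrial Sars2. The falls were small, from 10.6% for Eprs to 29.2% for Sars2 in mean FPKM. In bulk RNA, fewer cells making a transcript and less transcript per cell cannot be told apart. Of the 21 cytosolic and dual synthetase genes 7 fell, and of the 16 tested mitochondrial ones 1 fell. Without control CM replicate 3 these counts were 4 and 1, with 6 members lower in all, beside 2.38% of all tested genes. Tarsl2, whose symbol ends in 2, is counted as cytosolic. The medians of the log2 fold change of (FPKM + 1) were -0.083 for the cytosolic and dual set and -0.039 for the mitochondrial set, beside -0.014 for all tested genes. The difference between these sets was not tested, and they were not equally easy to call. The standard error (SE) of the change ran from 0.025 (Qars) to 0.052 (Tarsl2) in the cytosolic and dual set. In the mitochondrial set it ran from 0.035 (Iars2) to 0.076 (Wars2).

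**Figure D1:**
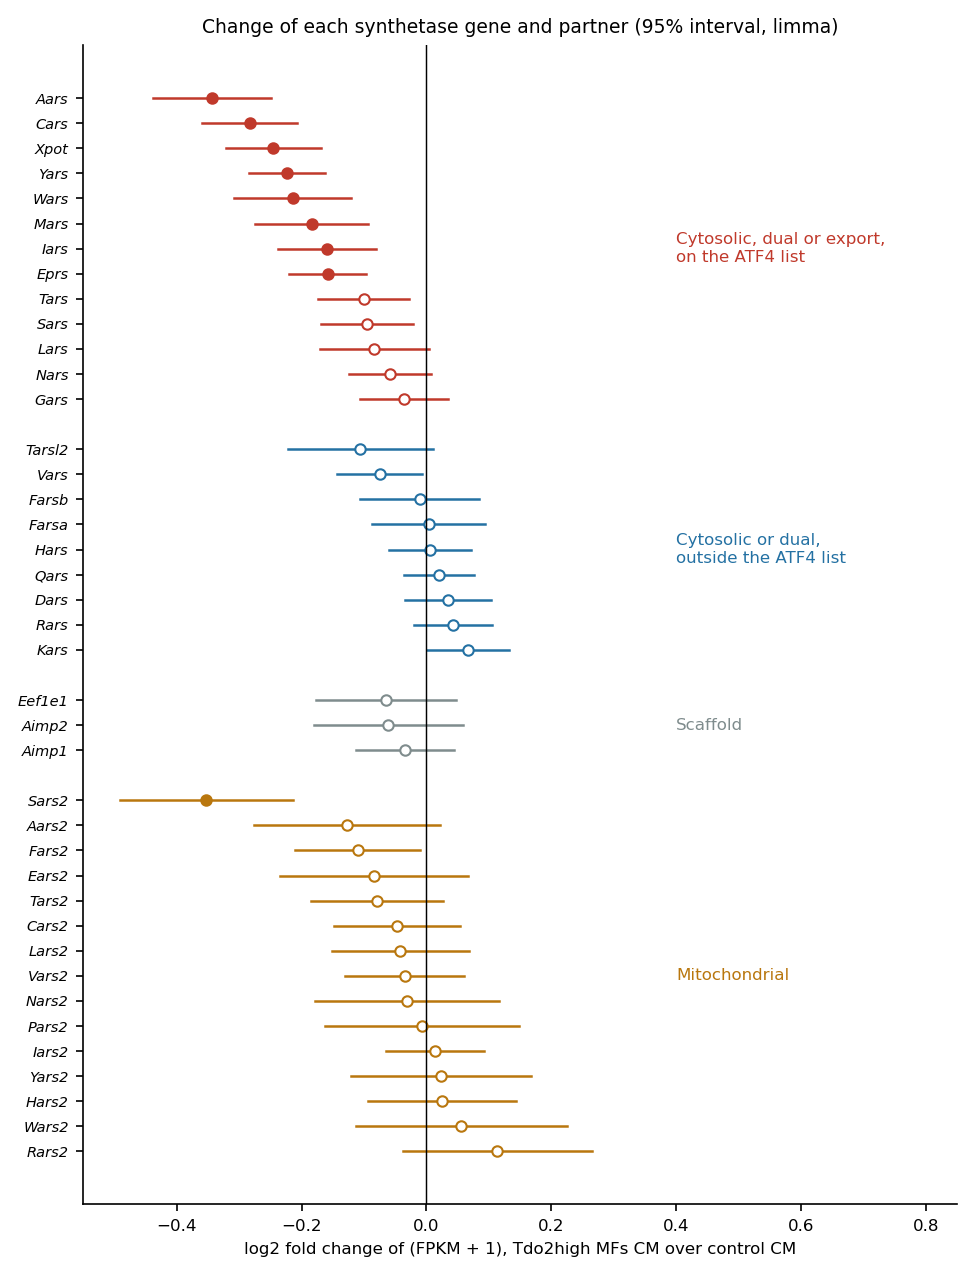
Each point is the log2 fold change of (FPKM + 1) of 1 of 40 members, Tdo2high MFs CM over control CM (3 libraries each), with its 95% interval from limma. Filled points have an adjusted p under 0.05. All 9 filled points lie below 0, and 8 of them belong to the 13 genes listed as responsive to ATF4.

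A list of 13 charging genes known to respond to ATF4 was drawn up from general knowledge, with earlier results of these data known: Aars, Cars, Eprs, Gars, Iars, Lars, Mars, Nars, Sars, Tars, Wars, Yars and Xpot. Of these, 8 fell and none rose, where 4.06% of all tested genes fell. All 13 had a log2 fold change below 0 (median -0.16, range -0.34 to -0.036), as did 6095 of the 10804 tested genes. Leaving out a single library left 5 to 7 of the 13 lower, the 5 being Aars, Cars, Eprs, Xpot and Yars without control CM replicate 3. Of all tested genes, 1.72% to 2.46% were then lower. That all 13 on the list lie below 0 holds for FPKM without further scaling and for each alternative scaling tried. Of the 9 cytosolic and dual synthetase genes outside the list, none passed the test (median 0.0055, or -0.0047 on the TPM scale, range -0.11 to 0.07). The difference between these sets was not tested. Summed over the 12 synthetases on the list, the level was 628, 631 and 645 FPKM with control CM and 568, 592 and 573 FPKM with Tdo2high MFs CM. The sum over the 9 genes outside it was 493, 497 and 493 FPKM with control CM and 496, 508 and 497 with Tdo2high MFs CM. The first sum differed by -8.96% on average, and its groups did not overlap. The second differed by 1.21%, and its groups overlapped.

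The promoters of the members were searched for TGATGNAA, the core of the C/EBP-ATF response element, on both strands (TTNCATCA on the other), after the members' values had been seen. A stricter form of it was also searched and is not given here, and no unrelated motif was searched. The windows run from 250 bases before to 50 bases after a RefSeq transcript start on GRCm38.p6 and were at hand for 32 of the 42 members. The motif lay in the windows of 5 members: Aars, Gars, Iars, Tars and Yars. In the table of all windows 3.97% of 32851 held it, and of the tested genes with a window 2.54% of 8752 did. All 5 genes stand on the ATF4 list, of which 9 had a window. None of 6 other cytosolic or dual genes and none of 14 mitochondrial genes with a window held the letters. A site of each is shown because these letters set the 5 members apart in sequence. Each is printed 5′ to 3′ along the gene's own strand, in 30 bases, with the motif in capitals. The first base of the motif is counted from the transcript start, which need not be the outer end of the gene. For Aars and Yars that start lies inside the gene's span, which begins at 111027778 and 129189734.
Aars, base 10 after the start (chr8:111033840-111033869, + strand): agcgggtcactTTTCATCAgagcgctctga
Gars, 30 bases before the start (chr6:55037960-55037989, + strand): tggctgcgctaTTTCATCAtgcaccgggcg
Iars, base 8 after the start (chr13:49682126-49682155, + strand): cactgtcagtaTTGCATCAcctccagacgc
Tars, 15 bases before the start (chr15:11399655-11399684, - strand): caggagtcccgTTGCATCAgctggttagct
Yars, base 4 after the start (chr4:129189895-129189924, + strand): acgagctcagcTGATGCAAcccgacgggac
Of the 5 genes, Aars, Iars and Yars fell, while Tars (log2 fold change -0.10, adjusted p = 0.0957 by limma) and Gars (-0.036, adjusted p = 0.529 by limma) did not pass. Of the 7 members that fell and had a window, 3 held the motif. Eprs, Mars, Xpot and Sars2 fell without it in their windows, and Cars and Wars had no window to search. Among all 222 tested genes with the motif, 14 were lower (6.31%) and 11 higher, with a median log2 fold change of -0.012. A match is a description of the letters and not a site known to be used.

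Among the synthetases that work outside the complex, Aars, alanyl-tRNA synthetase, had the largest fall of a cytosolic member. Its FPKM was 48.2, 48.1 and 49.8 with control CM and 36.8, 41.0 and 36.9 with Tdo2high MFs CM. All 3 libraries with Tdo2high MFs CM lay below the controls, replicate 2 nearest to them, and the log2 fold change was -0.34 ± 0.04 (SE, adjusted p = 0.00136 by limma). Aars lies on chromosome 8 from 111027778 to 111055569. Its exons share 14.3% of their bases with Exosc6, a subunit gene of the RNA exosome on the same strand. Exosc6 had 5.27 ± 0.802 FPKM and 4.19 ± 0.736 FPKM in the same order (SD, n = 3 each), and how the authors' counting split shared reads is not known.

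Cars, cysteinyl-tRNA synthetase, had 28.2, 26.7 and 27.6 FPKM in the controls and 22.7, 21.9 and 22.6 with Tdo2high MFs CM. The groups were well apart, and the log2 fold change was -0.28 ± 0.03 (SE, adjusted p = 0.00124 by limma). Yars, tyrosyl-tRNA synthetase, had 53.4, 54.6 and 55 FPKM with control CM. With Tdo2high MFs CM its libraries stood close together at 46.2, 46.5 and 46.5 FPKM, a change of -0.22 ± 0.03 (SE, adjusted p = 0.00128 by limma). S100pbp, which starts 33 bases from Yars on the other strand, had 31.5 ± 1.29 and 33.3 ± 1.74 FPKM (SD, n = 3 each) and did not pass. Cars lies on chromosome 7 from 143557230 to 143600090 and Yars on chromosome 4 from 129189734 to 129219240.

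Wars, tryptophanyl-tRNA synthetase, charges tRNA with the amino acid that Tdo2 consumes and is also known as an interferon-inducible gene. Its FPKM was 21.6, 22.3 and 23.0 with control CM and 18.1, 19.7 and 19.4 with Tdo2high MFs CM. No library of the second group reached the lowest control, and the log2 fold change was -0.21 ± 0.04 (SE, adjusted p = 0.0150 by limma). This call rests on control CM replicate 3, without which the change was -0.19 at adjusted p = 0.0537 by limma. When weakly expressed genes were kept in the fit, it was lost as well, at adjusted p = 0.0524 by limma. Wars lies on chromosome 12 from 108860030 to 108894175.

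The other 4 genes of the ATF4 list that work outside the complex did not pass. Sars, the seryl enzyme, had 70.4, 72.1 and 69.1 FPKM in the controls and 65.6, 68.5 and 63.7 with Tdo2high MFs CM. Tars, the threonyl enzyme, had 46.1, 45.1 and 48.3 against 42.9, 43.9 and 43.0 FPKM. In these 2 genes the groups did not overlap, as in 29.2% of all tested genes, and the adjusted p was 0.116 for Sars and 0.0957 for Tars by limma. Nars, the asparaginyl enzyme and the most abundant member, had 128 ± 1.61 and 123 ± 3.69 FPKM (SD, n = 3 each), and its groups overlapped. Gars, the glycyl enzyme of cytosol and mitochondria, had 73.1 ± 2.01 and 71.3 ± 1.75 FPKM (SD, n = 3 each), also with overlap.

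The multisynthetase complex holds 8 synthetase genes of this set, 4 of them on the ATF4 list. Of those 4, Eprs, Iars and Mars fell. Eprs, which carries the glutamyl and the prolyl enzyme in a single protein, had 59.8, 59.2 and 61.0 FPKM in the controls and 53.5, 54.6 and 53.0 with Tdo2high MFs CM. Its change of -0.16 ± 0.03 (SE) passed at adjusted p = 0.00930 by limma. Iars, the isoleucyl enzyme, had 35.9, 35.7 and 38.0 FPKM in the controls and 32.1, 33.6 and 32.2 with Tdo2high MFs CM. Its groups did not overlap, and its change was -0.16 ± 0.04 (SE, adjusted p = 0.0256 by limma). Mars, the methionyl enzyme, had 18.4, 19.5 and 18.8 FPKM in the controls and 17.0, 16.7 and 15.8 with Tdo2high MFs CM, a change of -0.18 ± 0.04 (SE, adjusted p = 0.0244 by limma). The calls of Iars and Mars were lost in 7 and 5 of 16 alternatives, at adjusted p up to 0.0869 and 0.0856 by limma. Iars lost its call without control CM replicate 1 or 3 or Tdo2high MFs CM replicate 1 or 3 (adjusted p = 0.0538, 0.0802, 0.0791 and 0.0869 by limma). Mars lost its call without control CM replicate 2 or 3 or Tdo2high MFs CM replicate 2 or 3 (adjusted p = 0.0695, 0.0635, 0.0595 and 0.0856 by limma).

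Mars meets Ddit3, a stress transcription factor, tail to tail on chromosome 10, and their exons on opposite strands share 68 bases, 1.99% of the exon bases of Mars. The labels do not say that the libraries kept strand, so reads from these bases cannot be told apart. Ddit3 itself had 11.1, 10.9 and 11.4 FPKM in the controls and 7.92, 6.56 and 5.68 with Tdo2high MFs CM. Its part in the value of Mars was not tested. Mars spans 127296221 to 127311786, Eprs lies on chromosome 1 from 185361417 to 185428360 and Iars on chromosome 13 from 49682130 to 49734267.

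Lars, the leucyl enzyme and the remaining complex member on the list, had 47.1, 48.2 and 50.2 FPKM in the controls and 43.4, 46.2 and 47.6 with Tdo2high MFs CM. The groups overlapped, and the 95% interval of its log2 fold change was -0.17 to 0.0043. The complex members outside the list, Qars, Rars, Kars and Dars, all had values slightly above 0, from 0.020 to 0.07, and none passed. Kars, the lysyl enzyme, had 107, 107 and 110 FPKM in the controls and 111, 116 and 112 with Tdo2high MFs CM (95% interval 0.0012 to 0.13, adjusted p = 0.203 by limma). The groups of Kars, of Qars, the glutaminyl enzyme (85.5 ± 0.625 and 86.7 ± 0.426 FPKM), and of Rars, the arginyl enzyme (65.9 ± 1.30 and 67.9 ± 0.765 FPKM), did not overlap (SD, n = 3 each). Those of Dars, the aspartyl enzyme (63.5 ± 1.21 and 65.1 ± 1.90 FPKM), did. Across all tested genes, groups did not overlap in 29.2%, counting either direction. Of the 8 synthetases of the complex, 3 thus fell and 5 did not pass, where 4.06% of all tested genes fell. Without control CM replicate 3 or without Tdo2high MFs CM replicate 3, Eprs alone passed.

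Its 3 scaffold proteins, which hold the enzymes together, did not pass either. Aimp1 had 44.8 ± 1.58 FPKM in the controls and 43.7 ± 1.23 with Tdo2high MFs CM (SD, n = 3 each). Aimp2 had 20.2 ± 1.46 and 19.3 ± 0.889 FPKM, and Eef1e1 had 19.2 ± 1.27 and 18.3 ± 0.723 FPKM. All 3 overlapped between groups, and their log2 fold changes were -0.034, -0.06 and -0.06. Aimp2 shares 29.4% of its exon bases with Eif2ak1 on the opposite strand, a gene at 16.5 ± 0.780 and 16.8 ± 0.466 FPKM (SD, n = 3 each). The level of Aimp2 is thus uncertain.

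Outside the complex and outside the list, Vars, the valyl enzyme, had 65.1 ± 1.69 FPKM in the controls and 61.8 ± 1.35 with Tdo2high MFs CM (adjusted p = 0.175 by limma). Tarsl2 had 6.75 ± 0.375 and 6.20 ± 0.122 FPKM (adjusted p = 0.255 by limma). The groups of both genes did not overlap, with the lower values after Tdo2high MFs CM. Across all tested genes, 17.5% did not overlap in that direction. Hars, the histidyl enzyme, had 44.7 ± 0.989 and 44.9 ± 0.495 FPKM, with a 95% interval of the log2 fold change from -0.06 to 0.07. Farsa and Farsb encode the chains of the phenylalanyl enzyme, which pair in equal numbers in the protein. Farsa had 20.3, 19.8 and 20.2 FPKM in the controls and ranged from 19.2 to 21.2 after Tdo2high MFs CM. Farsb had 34.7 ± 1.68 and 34.4 ± 1.42 FPKM (SD, n = 3 each). Their mRNAs kept a ratio of Farsb to Farsa of 1.73 ± 0.102 with control CM and 1.71 ± 0.0173 with Tdo2high MFs CM.

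Synthetases also divide into class I and class II, which fold differently and bind tRNA from opposite sides. Among cytosolic and dual genes 5 of 9 in class I fell (Cars, Iars, Mars, Wars and Yars), and 1 of 11 in class II (Aars), beside 4.06% of all tested genes. Without control CM replicate 3, class I was left with 2 (Cars and Yars) and class II with 1, and without Tdo2high MFs CM replicate 3 with 3 and 1. Eprs holds a domain of each class and is counted in neither. The medians were -0.16 for class I and -0.036 for class II. This difference was not tested.

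Xpot, exportin-t, carries mature tRNA out of the nucleus and is the member furthest from the enzymes in function. Its FPKM was 20.8, 21.0 and 21.5 with control CM and 18.0, 17.4 and 17.6 with Tdo2high MFs CM. The libraries of each group lay close together and the groups were apart, at a log2 fold change of -0.25 ± 0.03 (SE, adjusted p = 0.00260 by limma). Xpot lies on chromosome 10 from 121587380 to 121626506.

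**Figure D2:**
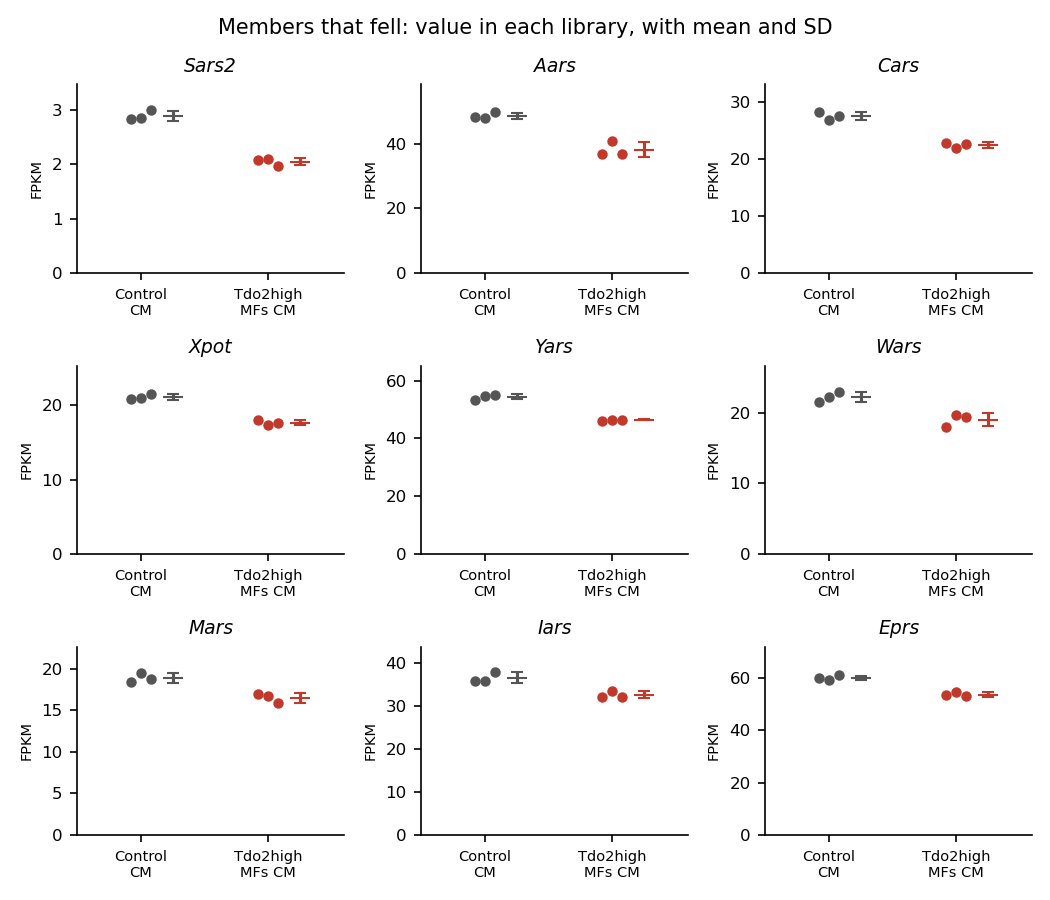
FPKM of the 9 members that fell, in each of the 6 libraries (dots), with the mean and SD of each group beside them. Axes start at 0, and in every panel the 3 libraries with Tdo2high MFs CM lie below all 3 controls, by 10.6% (Eprs) to 29.2% (Sars2) in the mean.

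Mitochondrial synthetases were the weaker set by level: with control CM the mean FPKM of the 16 tested ran from 2.54 (Aars2) to 26.7 (Iars2) with a median of 7.19, against 6.75 (Tarsl2) to 128 (Nars) with a median of 48.7 for the cytosolic and dual genes. FPKM is scaled by transcript length, so these levels can be set beside each other. Nars, Kars and Qars headed the order at 128, 108 and 85.5 FPKM, and each stood clear of the next over its 3 control libraries. Gars (73.1) and Sars (70.5) followed and overlapped, as did Rars, Vars and Dars in turn (65.9, 65.1 and 63.5). Iars2 was the sole mitochondrial member above 20 FPKM. It shares 22.9% of its exon bases with Rab3gap2 on the opposite strand, a gene at 11.4 ± 0.416 and 10.8 ± 0.195 FPKM (SD, n = 3 each), so its level is uncertain.

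**Figure D3:**
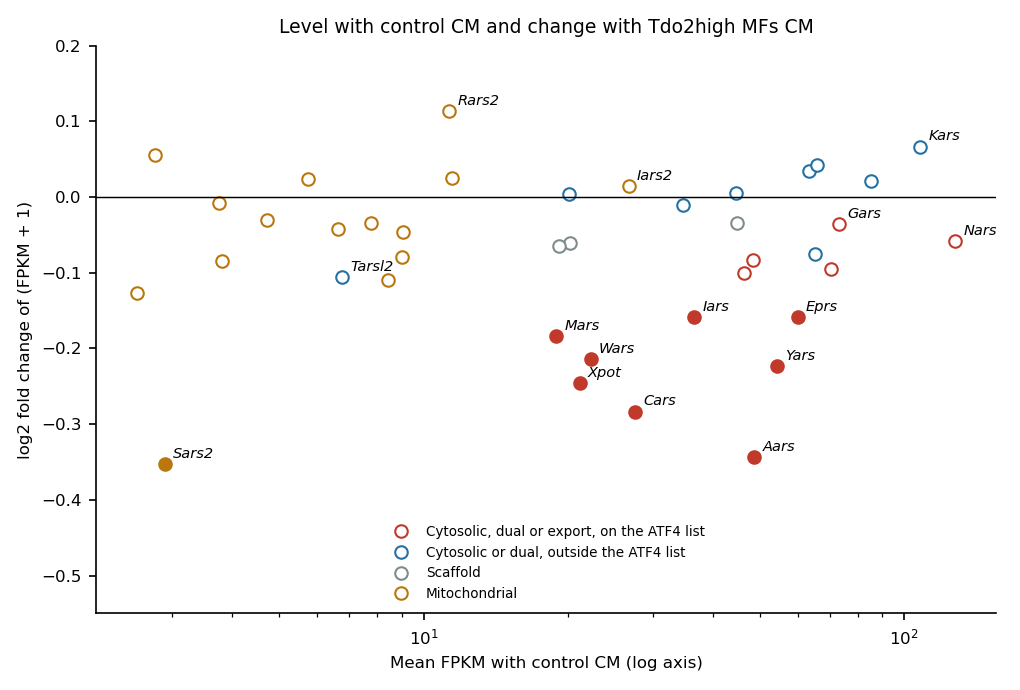
Mean FPKM with control CM (log axis) against the log2 fold change of (FPKM + 1) with Tdo2high MFs CM, for 40 members. Filled points have an adjusted p under 0.05 by limma. Of the members that fell, 8 lie between 18.9 (Mars) and 60.0 FPKM (Eprs), and Sars2 is at 2.89 FPKM.

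Sars2, mitochondrial seryl-tRNA synthetase, was the mitochondrial gene that fell. Its FPKM was 2.83, 2.85 and 2.99 with control CM and 2.08, 2.09 and 1.97 with Tdo2high MFs CM. The groups were far apart relative to their spread, and the log2 fold change was -0.35 ± 0.06 (SE, adjusted p = 0.00930 by limma). With a pseudocount of 0.1 in place of 1 the change was -0.48, since the pseudocount of 1 dampens low values. Sars2 lies on chromosome 7 from 28741957 to 28753879. Mrps12, a mitochondrial ribosomal protein gene, starts 172 bases from it on the other strand. Mrps12 had 15.5 ± 0.705 FPKM after control CM and 15.2 ± 1.44 after Tdo2high MFs CM (SD, n = 3 each, adjusted p = 0.808 by limma).

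None of the other tested mitochondrial genes passed, and 14 of them are described here, with log2 fold changes from -0.13 (Aars2) to 0.11 (Rars2). Groups did not overlap in 4 of the 14, Aars2, Fars2, Tars2 and Vars2, in each case with the lower values after Tdo2high MFs CM, beside 17.5% of all tested genes that did not overlap in that direction. Fars2, the mitochondrial phenylalanyl enzyme, had 8.23, 8.51 and 8.57 FPKM in the controls and 7.54, 7.99 and 7.70 with Tdo2high MFs CM (adjusted p = 0.173 by limma). Tars2, the threonyl enzyme, had 9.02 ± 0.393 and 8.48 ± 0.246 FPKM and Vars2, the valyl enzyme, 7.76 ± 0.0321 and 7.55 ± 0.111 FPKM (SD, n = 3 each). In the others described here the groups overlapped: Cars2, Ears2, Hars2, Iars2, Lars2, Nars2, Pars2, Rars2, Wars2 and Yars2. Rars2, the arginyl enzyme, spread most among the controls, at 11.4, 12.6 and 9.94 FPKM, and had 12.4, 12.2 and 12.2 with Tdo2high MFs CM. Hars2, the histidyl enzyme, starts 197 bases from Hars on the other strand, and their exons share 195 bases. The pair had log2 fold changes of 0.025 and 0.0055. The sum over all 17 mitochondrial genes was 126, 125 and 125 FPKM with control CM and 123, 122 and 123 with Tdo2high MFs CM.

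Cytosolic enzymes were then set beside the mitochondrial ones for the same amino acid, in 15 pairs, with Eprs taken against Ears2 and against Pars2. Of the pairs in which a single partner passed, the 6 with the largest difference in log2 fold change are given in full. Wars2 had 2.88, 2.57 and 2.83 FPKM in the controls and 2.56, 3.17 and 3.01 with Tdo2high MFs CM, with overlap, while Wars fell. Their ratio went from 8.09 ± 0.579 to 6.57 ± 0.434 (SD, n = 3 each). Yars2 had 6.03, 5.51 and 5.71 against 6.18, 6.15 and 5.28 FPKM, and the ratio of Yars to Yars2 went from 9.47 ± 0.550 to 7.94 ± 0.743. Cars2 had 8.75, 9.08 and 9.38 against 8.74, 8.52 and 8.98 FPKM, and the ratio of Cars to Cars2 went from 3.04 ± 0.164 to 2.56 ± 0.0395. In these 3 pairs the ratio was lower in every library with Tdo2high MFs CM than in any control. For Yars the margin was narrow, at 8.80 in Tdo2high MFs CM replicate 3 against 8.85 in control CM replicate 1.

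Iars2 had 27.3, 26.6 and 26.2 FPKM in the controls and 27.4, 26.0 and 27.6 with Tdo2high MFs CM, and the ratio of Iars to Iars2 went from 1.37 ± 0.0706 to 1.21 ± 0.0722 without overlap. Aars2 had 2.48, 2.62 and 2.51 against 2.19, 2.11 and 2.42 FPKM. The ratio of Aars to Aars2 went from 19.2 ± 0.773 to 17.1 ± 2.12, here with overlap of the groups. Serine ran the other way: Sars2 fell and Sars did not pass, and the ratio of Sars to Sars2 went from 24.4 ± 1.16 to 32.2 ± 0.623 without overlap. Over the 15 pairs, 6 ratios did not overlap between groups, 5 of them lower (Wars, Yars, Cars, Iars and Lars over their partners) and 1 higher (Sars to Sars2). That of Lars to Lars2 lay at 7.16, 7.24 and 7.57 in the controls and at 7.13, 7.15 and 7.14 with Tdo2high MFs CM. With 3 libraries against 3 the two-sided exact permutation test cannot go below p = 0.1, which these 6 ratios reached (0.25 after adjustment over the 15 pairs). None therefore passed the threshold. In the pairs of Wars, Yars, Cars, Iars and Sars a single partner had passed, so their ratios restate those calls from the same values. They are no further evidence. Among single genes, groups did not overlap in 29.2% of all tested genes, and no such share was taken for ratios.

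**Figure D4:**
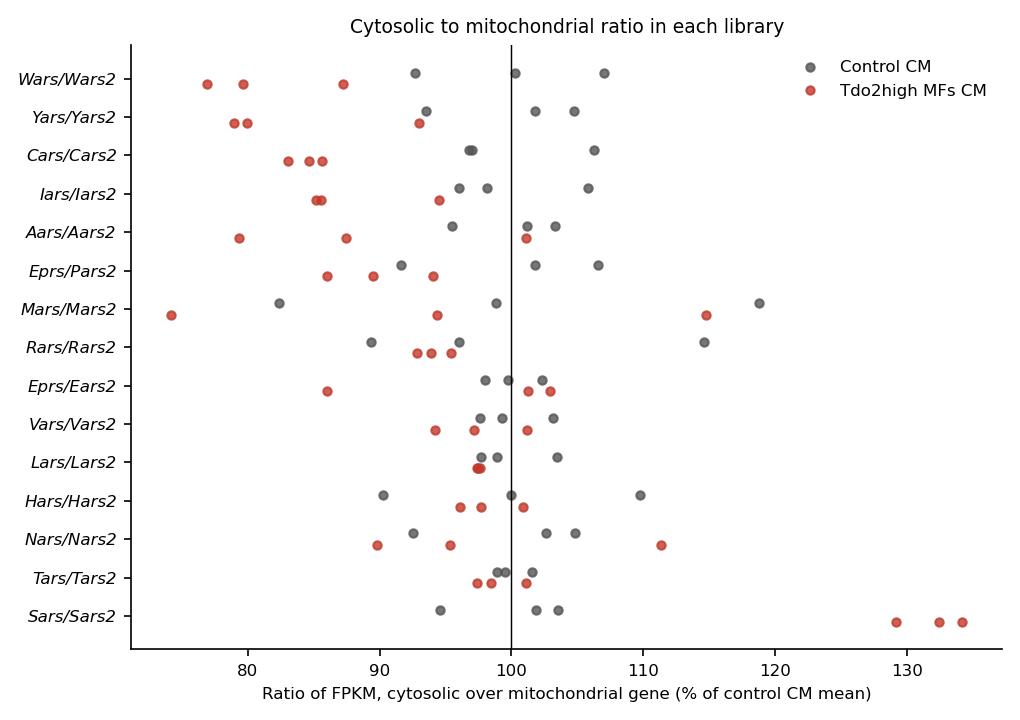
Ratio of the FPKM of a cytosolic synthetase gene to that of its mitochondrial counterpart in each library, as a percentage of the control CM mean, for 15 pairs. Each dot is a library. The ratios for Wars, Cars, Iars and, by a narrow margin, Yars and Lars are lower in all 3 libraries with Tdo2high MFs CM. That for Sars is higher.

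Other genes around the charging step were read from lists drawn up with earlier results known. None of 14 tested charging accessories passed, among them the amidotransferase genes Gatb, Gatc and Qrsl1 that make mitochondrial glutaminyl-tRNA (median log2 fold change 0.021). None of 19 tRNA maturation genes passed either, with Pop1 of the ribonuclease P complex nearest at -0.17 (adjusted p = 0.0525 by limma). Of 9 elongation factors 1 fell: Gfm1, the mitochondrial translocation factor, with 14.1, 13.5 and 12.3 FPKM against 11.5, 10.9 and 11.1 (adjusted p = 0.0256 by limma). Of 20 genes for RNA polymerase III, which transcribes tRNA, and its factors 1 rose: the subunit Polr3gl, with 12.3, 11.3 and 11.6 against 14.5, 13.4 and 13.7 FPKM (adjusted p = 0.0209 by limma). The call of Gfm1 was lost on leaving out any single library but control CM replicate 3. That of Polr3gl was lost without control CM replicate 2 or 3 or Tdo2high MFs CM replicate 1 or 3. For comparison, 7.41% of all tested genes passed.

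Of 16 regulators of the amino acid response, also listed with earlier results known, 5 fell and none rose, where 4.06% of all tested genes fell. Gcn1 fell, the ribosome-bound partner of the amino acid sensor kinase Gcn2, from 24.3, 22.4 and 24.5 to 20.7, 20.0 and 21.2 FPKM (adjusted p = 0.0240 by limma). Its call was lost without control CM replicate 1 or 3 or Tdo2high MFs CM replicate 1 or 2. The stress factors Ddit3 and Atf5, the pseudokinase Trib3 and Nupr1 were the others, with log2 fold changes of -0.66, -0.60, -0.30 and -0.24. Eif2ak4, which encodes Gcn2 itself, had a log2 fold change of 0.07 and Atf4 of -0.08, and neither passed (adjusted p = 0.362 and 0.1002 by limma).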

How the data were processed

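The authors deposited a table of FPKM for 6 libraries, rounded to 2 decimals, per the file headers. Libraries were made from polyA RNA with random hexamers, per the labels' protocols. The build was GRCm38, per the submitters' processing notes; for the aligner, quantifier and annotation, none is named in the labels or file headers. Steps of whole reads were looked for in genes with low values in all 6 libraries, up to 0.6 FPKM. Divided by the smallest value of their gene, 4275 values lay on average 0.258 from a whole number, where 0.25 is expected without steps. Genes not detected in every library were left out, and the smallest value of a gene need not be a single read. The check thus cannot tell whether steps are present. Depth is unknown, no count model was used, and the number of libraries limits the precision. Genes with 1 FPKM in at least 3 libraries were tested as log2(FPKM + 1) by limma 3.58.1 in R 4.3.3 (intensity trend, two-sided) with Benjamini-Hochberg adjustment over all 10804 genes and a threshold of 0.05. The script was tested on simulated data, where it recovered 35.2% of 1.15-fold and 53.2% of 1.2-fold changes. A gene that did not pass may thus still have changed by a small amount. Folds of low genes are understated by the pseudocount.

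Samples were grouped by title. Members and lists were chosen with earlier results of these data known. Members are named with few exceptions, since a member and a promoter site are not reported here; all 6 values are given for those that passed and for partners in 6 pairs, and other values were added after they were seen. Gene positions and promoters come from RefSeq (GRCm38.p6), which held all 42 gene numbers, and neighbours from GENCODE M21. The fit was repeated with other pseudocounts (0.1 and 0.5), filters, scalings (TPM, median of ratios, quantiles), variance settings and a replicate block, and without each library. Figures were drawn with matplotlib 3.10.9.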

Additional observations from a re-analysis of the deposited data

How the results depend on the processing

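Of the 9 members that fell, Aars, Cars, Eprs, Sars2, Xpot and Yars passed in all 16 alternatives, and Iars, Mars and Wars lost their calls in some. None of the other 32 tested members passed in any alternative. With no filter on low values 394 genes passed in either direction (195 lower and 199 higher), 4 cytosolic or dual synthetases were lower and 5 genes of the ATF4 list were lower, and with no intensity trend 525 genes passed. Leaving out each library in turn gave 395 to 559 genes, 6 to 8 members lower, 4 to 6 cytosolic or dual synthetases lower (4 without control CM replicate 3) and 1 mitochondrial synthetase lower. With the replicate number as a block, 622 genes and 8 members passed, Iars being lost (adjusted p = 0.0510 by limma). Same-numbered libraries of the groups showed no large shared deviation (r across genes -0.030 to 0.018). This cannot tell whether same-numbered samples were handled together. The median of the mitochondrial set was -0.017 under quantile normalization. No scaling moved the median of all genes by more than 0.1. Read depth is unknown, so no limit from counting can be given.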
